A study of Mus musculus with 6 samples.

Results

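The genes described here encode the machinery that folds chromatin into loops: the cohesin ring subunits Smc1a, Smc3, Rad21, Stag1 and Stag2, the cohesin loader Nipbl, the insulator protein Ctcf, the Mediator subunits Med1 and Med12, and the zinc finger protein Yy1. The 10 genes were chosen by name, and all 10 were present among the 16668 genes listed in each of the 6 libraries. Messenger RNA was sequenced from mouse E14 embryonic stem (ES) cells of strain 129/Ola at passage 3 to 5, grown in 2i medium with LIF, after transfection with siRNA. Each label, control, Ring1B-KD (knockdown of Ring1B, the product of Rnf2) and Dzip3-KD (knockdown of Dzip3), was carried by 2 libraries, and both targets are ubiquitin ligases that act on histone H2A. The question asked of the looping factors was whether the transcripts of the loop-forming machinery differed between these conditions, because the study connected Dzip3 with chromatin conformation. The cells are 1 cultured line, knockdown was transient, and the study describes its RNA-seq samples as biological duplicates. Each group thus holds only 2 libraries. For each gene, the p-values between groups rest on 1 spread pooled over the groups of all 6 libraries and moderated across genes.

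The labels and the names of the deposited files did not match for 4 of the 6 libraries. Each file name carries a number from 01 to 06 and a condition word. The libraries labelled control 1 and control 2 came from file 01, with the word control, and file 02, with the word Ring1BKD. The libraries labelled Ring1B-KD 1 and Ring1B-KD 2 came from file 03, with the word Dzip3KD, and file 04, with the word control. The libraries labelled Dzip3-KD 1 and Dzip3-KD 2 came from file 05, with the word Ring1BKD, and file 06, with the word Dzip3KD. Values below are always given in the order of the file numbers, 01 to 06, which is also the order of the labels just listed. Comparisons were made by label and by word, and neither is taken here as the right one.

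The targeted genes were examined first. Rnf2 stood at 30.6, 20.4, 26.8, 28.8, 19.4 and 28.2 RPKM, the read count of a gene scaled by its exon length and by the mapped total of the library. Both libraries labelled Ring1B-KD lay between the 2 libraries labelled control, whereas both libraries with the word Ring1BKD were the lowest of the 6. Dzip3 stood at 2.24, 2.68, 1.18, 1.89, 1.70 and 1.31 RPKM, on 23 to 53 reads, and both libraries with the word Dzip3KD were the lowest. Within each run of 3 tables, Rnf2 in the Ring1BKD library was 0.668-fold (95% interval 0.556 to 0.801) and 0.674-fold (0.559 to 0.812) the level in the control-word library. Dzip3 in the Dzip3KD library was 0.527-fold (0.301 to 0.905) and 0.692-fold (0.404 to 1.17). These intervals are exact binomial intervals on reads and cover counting error only. With the spread between libraries taken into account, neither passed the test across all genes (limma with Benjamini-Hochberg adjustment, adjusted p = 0.232 for Rnf2 by word and 0.754 for Dzip3 by word).

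Depth was even. The RPKM steps gave whole reads for 93.5% of genes and mapped totals of 3015348 to 3583611 reads per library, and the 10 members held between 55 and 570 reads in a library. The summed level of 6 ES cell markers ranged from 895 to 1190 RPKM, and that of 5 primitive endoderm markers from 0.999 to 2.79. The 4 listed fibroblast markers summed to 1.18 to 3.10 RPKM, most of it Thy1 (0.765 to 2.73). Col1a1 and Col1a2 reached at most 0.353 and 0.179 RPKM, and S100a4 was listed at 0 in 5 libraries. In bulk RNA of this kind, fewer cells with a transcript and less transcript per cell cannot be told apart.

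As background, cohesin is a ring of the Smc1a and Smc3 ATPases closed by Rad21, to which either Stag1 or Stag2 binds. It is loaded onto DNA by Nipbl with its partner Mau2, extrudes a loop, and tends to stop where Ctcf is bound in convergent orientation. Mediator connects enhancer-bound factors with RNA polymerase II, and in ES cells it shares many active enhancers and promoters with cohesin and Nipbl. Yy1 binds enhancers and promoters and can hold them together.

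The RefSeq promoter table, with windows from 250 bases before to 50 bases after a gene's start (GRCm38.p6), held 7 of the 10 members. Because Yy1 is itself a member, the windows were searched on both strands for its recognition core, AANATGGC, which was present for 3 of the 7 members and in 6.05% of all 32851 windows. The 30 bases around each match are shown with the match in capitals, read on the plus strand and placed on NCBIM37 (mm9), the build of the deposited files, by an exact match of the whole window.
Ctcf, chr8:108160437-108160466: accgcgccgccGCCATTTTgtgtccgagcc
Smc3, chr19:53674875-53674904: ccgcggccgccGCCATTTTgtttggccaca
Stag1, chr9:100543654-100543683: gagaagctctaAAAATGGCgggcggcaacc
In Ctcf and Smc3 the match lay on the minus strand, starting at base 11 and base 1 counted from the RefSeq start. In Stag1 it lay 202 bases before the RefSeq start, which is inside the longer gene that GENCODE M1 draws. The 7 windows held 22 to 47 CpG dinucleotides, against a median of 7 and an upper quartile of 20 over all windows. The share of 6.05% was not taken over windows matched in CpG, so it is no matched background for the 3 of 7 members. A match describes letters only and is not a measurement of binding.

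The mRNA levels of the 10 genes spanned a 15.6-fold range of means, and every mean was above the median of all listed genes, 2.15 RPKM. Rad21 was highest at 44.5 ± 3.52 RPKM (SD, n = 6). Ctcf followed with 23.1 ± 2.65, Yy1 with 21.5 ± 2.31, Smc1a with 17.3 ± 4.06 and Smc3 with 14.6 ± 1.97. A middle group held Nipbl at 8.35 ± 1.80, Med1 at 8.34 ± 0.874 and Stag1 at 7.32 ± 0.812. Stag2 at 3.10 ± 0.412 and Med12 at 2.85 ± 0.573 were lowest.

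**Figure D1:**
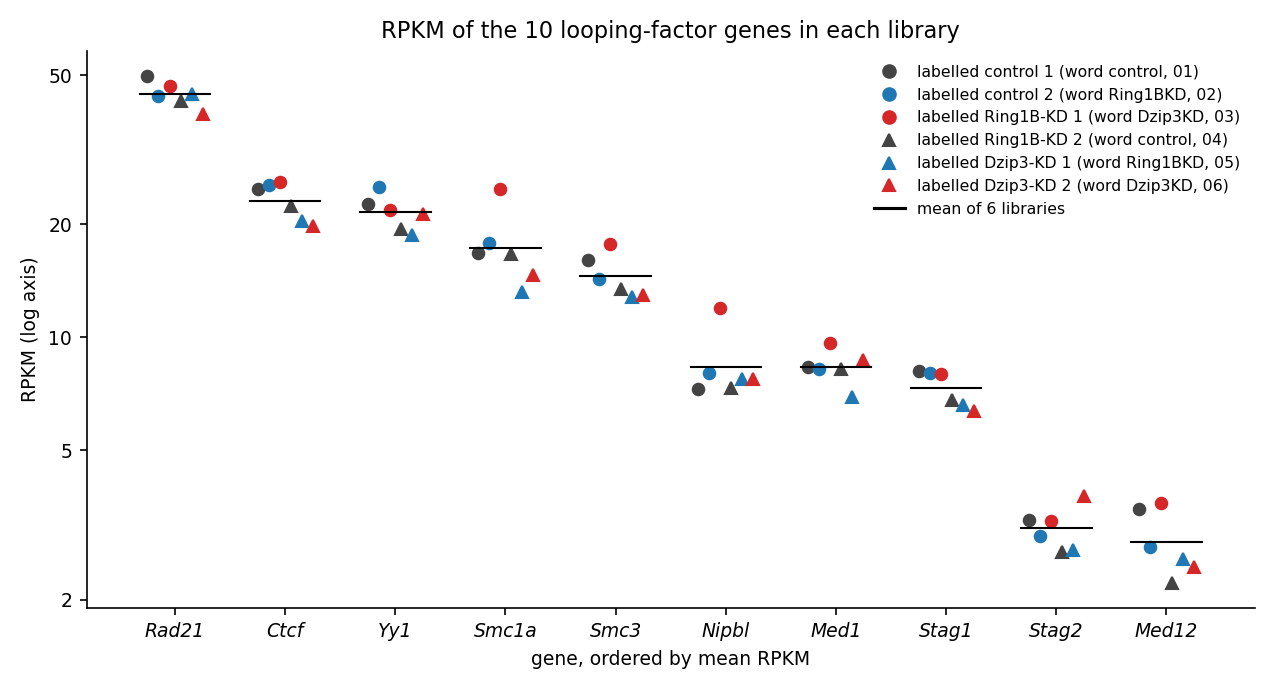
RPKM on a log axis for the 10 genes, ordered by mean, with 1 symbol per library and a line at the mean of 6 libraries. Circles are files 01 to 03, triangles files 04 to 06, and colours the condition word. Rad21 lies above every other gene in every library, and the red circle, the library labelled Ring1B-KD 1, stands above the rest for Nipbl and Smc1a.

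The order was the same in all 6 libraries for 5 of the 9 pairs of neighbours. Rad21 exceeded Ctcf 1.93-fold, Smc1a exceeded Smc3 1.17-fold, Smc3 exceeded Nipbl 1.76-fold, Med1 exceeded Stag1 1.14-fold and Stag1 exceeded Stag2 2.36-fold. Each of these 5 pairs gave p = 0.0312 (exact two-sided sign-flip permutation test over 6 libraries), the smallest value that 64 sign patterns allow, and 0.0563 after Benjamini-Hochberg adjustment over the 9 pairs. The neighbours were defined by the means of these same 6 libraries, so the p-values are no independent support for the order. They describe only how steady it was from library to library. Ctcf and Yy1 (1.07-fold, adjusted p = 0.121 by the same exact test), Yy1 and Smc1a (1.26-fold, adjusted exact p = 0.0938), Nipbl and Med1 (0.990-fold, adjusted exact p = 0.781) and Stag2 and Med12 (1.10-fold, adjusted exact p = 0.387) changed order in at least 1 library. Counting reads over the longest annotated transcript instead of the deposited exon length exchanged Stag2 and Med12 at the bottom and kept the other 8 ranks.

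The ring subunits were described next. Rad21, the kleisin that closes the ring (chr15:51794151-51823306, minus strand, 14 exons in its 1 annotated transcript), had 49.7, 44.1, 46.9, 42.6, 44.5 and 39.4 RPKM, on 508 to 570 reads. Its coefficient of variation, 7.91%, was the lowest of the 10 genes, and the runs 01 to 03 and 04 to 06 overlapped. Smc3 (chr19:53674886-53720323, plus strand) had 16.1, 14.3, 17.8, 13.5, 12.8 and 13.0 RPKM. All 3 files 04 to 06 were below all 3 files 01 to 03. Smc1a, its partner on the X chromosome (chrX:148450971-148497237, plus strand), had 16.8, 17.8, 24.9, 16.7, 13.2 and 14.6 RPKM. The library labelled Ring1B-KD 1, with the word Dzip3KD, was far above the other 5, and files 04 to 06 again lay below files 01 to 03, here by a narrow margin between 16.7 and 16.8.

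The 2 Stag subunits differed in level and pattern. Stag1 (chr9:100498217-100858964, plus strand) had 8.11, 8.05, 7.99, 6.80, 6.62 and 6.36 RPKM, so that files 01 to 03 lay close together and files 04 to 06 lay close together below them. Stag2 (chrX:39502494-39630362, plus strand) had 3.26, 2.96, 3.24, 2.68, 2.71 and 3.77 RPKM, and its highest library was the one labelled Dzip3-KD 2. Stag1 made up 71.4%, 73.1%, 71.1%, 71.7%, 71.0% and 62.8% of the summed RPKM of the pair. The share in the library labelled Dzip3-KD 2 was thus lower than in the other 5, which lay within 71.0% to 73.1%. Stag2 rested on 55 to 84 reads per library, the thinnest cohesin count.

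Between ring partners, Rad21 was 2.64 to 3.47 times Smc3, and Smc1a was 1.03 to 1.40 times Smc3. For Smc1a over Smc3, the libraries with the word control stood at 1.05 and 1.24, inside that range. These are ratios of RPKM and say nothing of protein. The meiotic paralogues were near the floor of detection: Smc1b averaged 0.599 RPKM and Rec8, the meiotic kleisin, 0.603. Stag3, the meiotic Stag protein, averaged 1.98 RPKM and was closer to Stag2, which exceeded it 1.38-fold to 1.89-fold.

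Nipbl, the loader (chr15:8241225-8394463, minus strand), had 7.27, 8.05, 11.98, 7.34, 7.74 and 7.75 RPKM, on 236 to 435 reads. The other 5 libraries lay within 7.27 to 8.05, and only the library labelled Ring1B-KD 1 stood apart, at 11.98. Its partner Mau2 did not follow it, with 5.49, 5.59, 5.63, 6.76, 6.67 and 6.75 RPKM, and Wapal, which releases cohesin, had 23.8, 22.4, 24.5, 20.8, 17.8 and 20.5. The ratio of Nipbl to Mau2 was 2.13 in the library labelled Ring1B-KD 1 and 1.09 to 1.44 in the others. With depth allowed for, the variance of Nipbl and Smc1a reads over the 6 libraries was 13.9 and 12.7 times that of counting alone. The median of this variance ratio was 3.15 over the 5041 genes that averaged 50 or more reads, which were not matched to the members in read number. The ratio was larger than that of Nipbl for 10.3% of those genes. The other 8 members were at 1.17 to 4.31 times. In the same library, genes with more than 8 kb of exon were 0.06 higher on the log2 scale than their own mean over the libraries (median of 431 genes), and those up to 2 kb were at -0.01. Nipbl has 10762 bases of exon in the deposited values and Smc1a 3970, and the part of exon length in their values was not tested.

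Ctcf, the insulator protein (chr8:108160468-108206822, plus strand), had 24.8, 25.5, 25.9, 22.4, 20.4 and 19.8 RPKM, on 255 to 334 reads. Files 04 to 06 were all below files 01 to 03, with 24.8 to 25.9 RPKM in the first run of numbers and 19.8 to 22.4 in the second. Its germline paralogue Ctcfl averaged 0.897 RPKM. Yy1 (chr12:110031183-110054842, plus strand) had 22.7, 25.1, 21.8, 19.4, 18.7 and 21.4 RPKM. Its files 04 to 06 were also below files 01 to 03, but by a narrow margin between 21.4 and 21.8. Among its relatives, Yy2 averaged 3.31 RPKM and Zfp42, the ES cell marker also known as Rex1, 193 RPKM, 7.34 to 10.5 times Yy1.

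Med1, the subunit that contacts nuclear receptors (chr11:98013468-98054607, minus strand), had 8.35, 8.22, 9.65, 8.21, 6.94 and 8.68 RPKM. Its highest library was the one labelled Ring1B-KD 1 and its lowest the one labelled Dzip3-KD 1. Med12, of the kinase module (chrX:98469369-98492804, plus strand), had 3.49, 2.76, 3.61, 2.22, 2.57 and 2.44 RPKM, on 62 to 103 reads. Files 04 to 06 lay below files 01 to 03. Among 33 Mediator genes with a median of 6.77 RPKM, Med1 ranked 8 and Med12 ranked 29. Med19 (16.7 RPKM) and Med10 (16.2) were highest, and Med14, the backbone subunit (1.88), and Med12l, the Med12 paralogue (0.609), were lowest.

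By label, no member passed the test. The fit used limma on log2(RPKM + 1) over the 11538 genes whose mean reached 0.5 RPKM, and a gene was called at an adjusted p below 0.05. For Ring1B-KD against control, 0 of 10 members and 0% of all genes were called. The differences ranged from -0.20 (Yy1) to 0.27 (Nipbl), with a median of -0.06 beside -0.02 for all genes. Without the library labelled Ring1B-KD 1 the difference of Nipbl was -0.05. At an unadjusted p below 0.05 there were 589 genes and no member.

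For Dzip3-KD against control by label, 0 of 10 members and 0% of genes were called. The differences ranged from -0.31 (Ctcf) to 0.04 (Stag2), with a median of -0.22 beside -0.07 for all genes, and 1411 genes but no member had an unadjusted p below 0.05. For 6 members, Ctcf, Smc1a, Smc3, Stag1, Med12 and Yy1, the pair labelled Dzip3-KD lay wholly under the pair labelled control, as it did for 30.3% of all genes tested. Both labelled control come from files 01 to 03 and both labelled Dzip3-KD from files 04 to 06, so that label and run cannot be told apart for these 4 libraries. With the run of file numbers as a block, the median of the members went from -0.22 to 0.14. That block was estimated only from the pair labelled Ring1B-KD, the only label with a library in each run. The value of 0.14 thus rests on the difference within that pair and is not a difference freed of the run. For Dzip3-KD against Ring1B-KD by label, 0 of 10 members and 0% of genes were called, the differences ranged from -0.52 (Smc1a) to 0.09 (Stag2), and the median was -0.17 beside -0.03. There 534 genes, 1 of them a member, had an unadjusted p below 0.05.

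By word, the run of file numbers was fitted as a block, so that each knockdown word was set against the control word of the same run. The word Ring1BKD against the word control gave 0 called members among 48 genes called, 0.416% of those tested. The differences of the members were small, from -0.12 ± 0.19 (SE; Smc1a) to 0.10 ± 0.19 (Nipbl), with a median of -0.05 beside -0.08 for all genes. Of the members, 3 were lower in both runs and 1, Nipbl, was higher in both. Over all genes, 40.6% were lower and 18.5% higher in both runs.

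The word Dzip3KD against the word control called 0 members and 0% of genes, with 752 genes and no member at an unadjusted p below 0.05. Nipbl had the largest difference, 0.36 ± 0.19 (adjusted p = 0.756, limma). It was 1.65-fold (95% interval on reads 1.40 to 1.94) in files 01 to 03 and 1.06-fold (0.892 to 1.25) in files 04 to 06. Smc1a, at 0.18 ± 0.19, was 1.48-fold (1.24 to 1.77) in the first run and 0.876-fold (0.721 to 1.06) in the second, so its direction differed between runs. Stag2, at 0.19 ± 0.19, was 0.996-fold (0.695 to 1.43) in the first run and 1.41-fold (0.991 to 2.02) in the second. The other 7 members lay between -0.10 (Rad21) and 0.13 (Med1), and the median of the 10 was 0.06 beside -0.03. Both libraries with the word Dzip3KD were above both with the word control for Nipbl and Med1, 2 of 10 members, and for 11.2% of all genes.

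**Figure D2:**
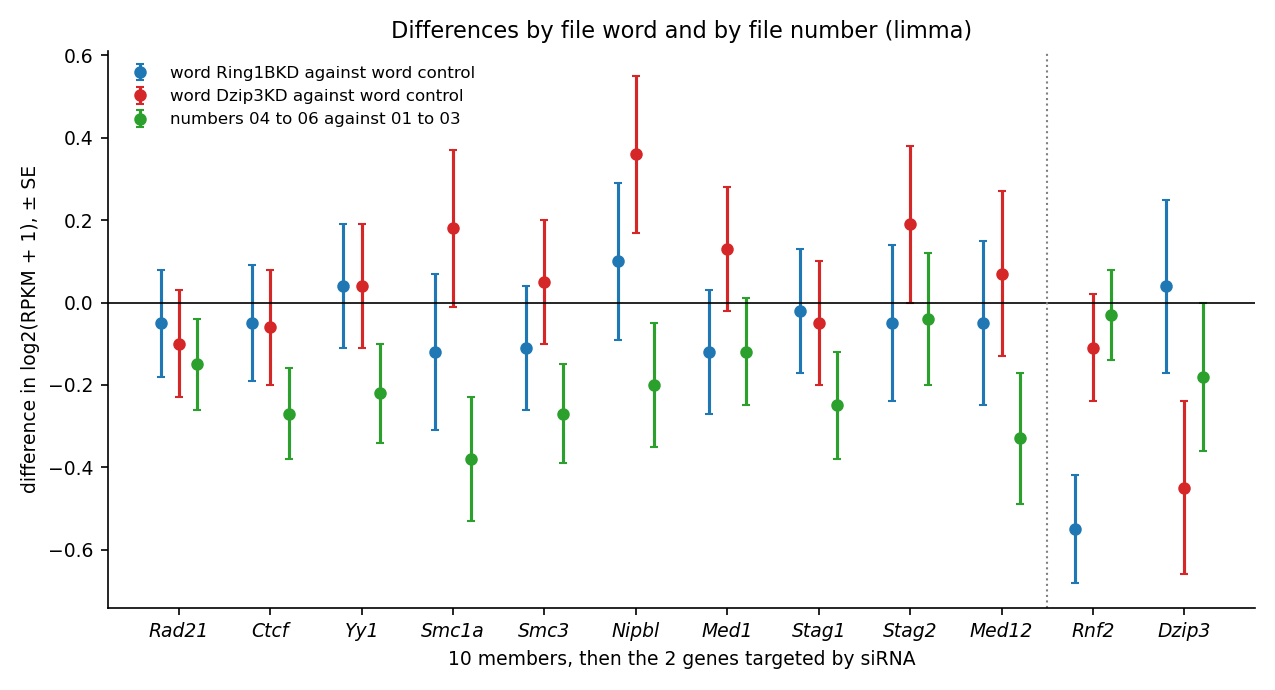
Differences in log2(RPKM + 1) with standard errors from limma for the 10 genes and, right of the dotted line, the targeted genes Rnf2 and Dzip3. Blue and red points compare the knockdown words with the control word and lie on both sides of 0 for the members, with Nipbl at 0.36 the highest. Green points compare files 04 to 06 with files 01 to 03 and are below 0 for all 10 members.

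The word Dzip3KD against the word Ring1BKD called 78 genes, 0.676% of those tested, and 0 members. The differences ranged from -0.04 (Rad21) to 0.30 (Smc1a), with a median of 0.14 beside 0.05. On simulated reads for this design, with the word Dzip3KD against control and 10689 genes, 14.5% of 200 genes changed 2-fold were called and 94.0% of those changed 4-fold. The changed genes were drawn only from those above a minimum of expected reads, so the recovery of the lowest genes is not covered. Reads were simulated with the same dispersion for every gene and with no difference between the runs of file numbers. The simulation was not made for the members or for the other comparisons.

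The libraries were also compared between the runs of file numbers, a comparison added after the values were seen. In files 04 to 06 against files 01 to 03 no member was called. All 10 members had a negative difference, as did 55.3% of the 11538 genes, and the median was -0.23 beside -0.04. Stag2 was positive, at 0.038, without the library labelled control 1 and without the one labelled Ring1B-KD 2. The largest were Smc1a (-0.38 ± 0.15, adjusted p = 0.157), Med12 (-0.33 ± 0.16, adjusted p = 0.242), Ctcf (-0.27 ± 0.11, adjusted p = 0.167), Smc3 (-0.27 ± 0.12, adjusted p = 0.196) and Stag1 (-0.25 ± 0.13, adjusted p = 0.242), all by limma. Yy1 stood at -0.22, Nipbl at -0.20, Rad21 at -0.15, Med1 at -0.12 and Stag2 at -0.04. Over all genes 879 were called, 7.62% of those tested, 455 of them higher and 424 lower. By voom on the recovered reads Smc1a was called (-0.41, adjusted p = 0.0403). Every library of the second run lay below every library of the first for 6 members, Ctcf, Smc1a, Smc3, Stag1, Med12 and Yy1, and for 15.5% of all genes. The primitive endoderm markers split along the same line: their summed level was 1.75 to 2.79 RPKM in files 01 to 03 and 0.999 to 1.15 in files 04 to 06. Of the 5 markers, Gata6, Dab2 and Pdgfra were lower in every library of the second run, Gata4 and Sox17 overlapped, and Gata6 and Sox17 were listed at 0 in 1 library. The markers were near the floor of detection, with Gata6 at 0 to 0.371 RPKM and Dab2 at 0.196 to 1.6, so the split rests on low values. The summed level of the ES cell markers overlapped between the runs, with 895 to 1170 and 975 to 1190 RPKM. Taken singly, only Pou5f1 and Sox2 overlapped. Nanog (194 to 246 RPKM, then 266 to 291) and Tdgf1 (124 to 146, then 177 to 220) were higher in every library of the second run. Esrrb (111 to 136, then 75.6 to 106) and Klf4 (50.7 to 61.7, then 40.0 to 48.7) were lower in every library of it. The part of these markers in the members' differences was not tested. No source used here says what the 2 runs of numbers stand for.

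**Figure D3:**
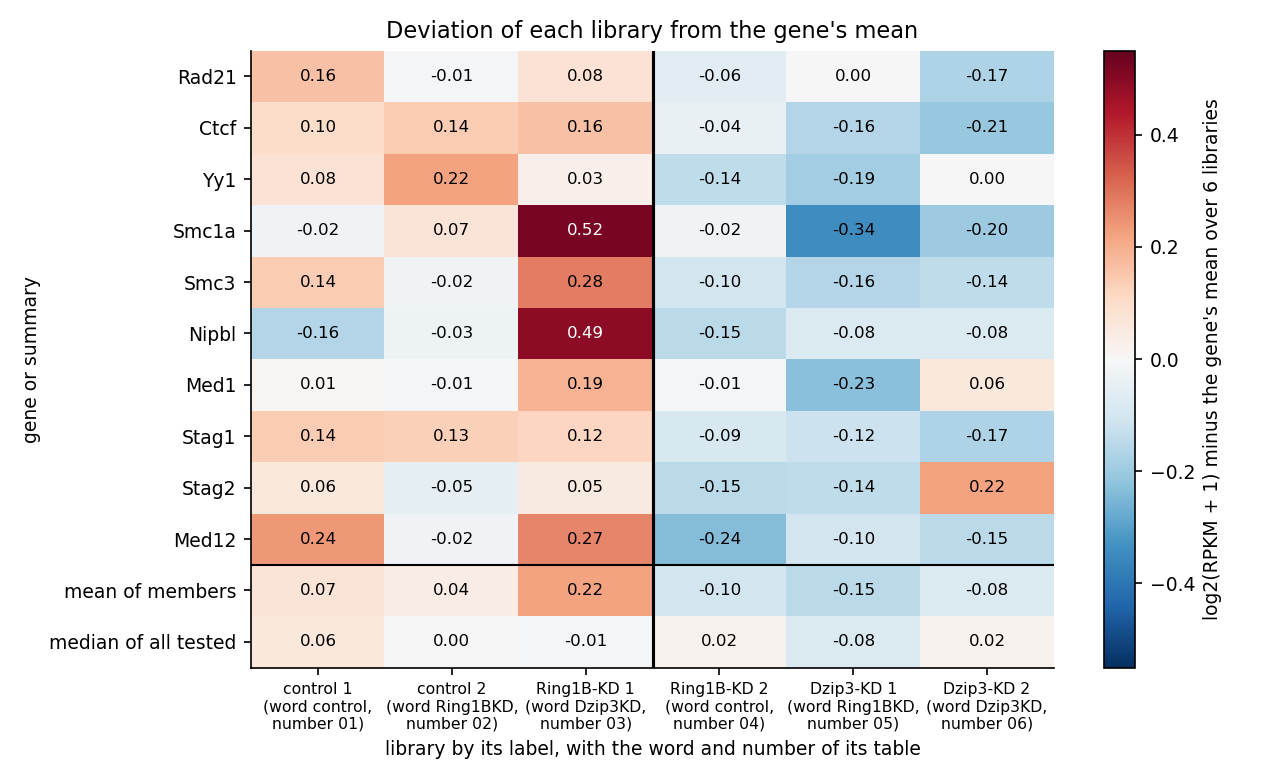
Each cell is log2(RPKM + 1) of a gene in a library minus that gene's mean over the 6 libraries, in the order of file numbers with a line between 03 and 04. The mean of the members is 0.07, 0.04 and 0.22 left of the line and -0.10, -0.15 and -0.08 right of it, while the median of all genes stays between -0.08 and 0.06.

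The patterns of the members across the libraries were compared in pairs. Of the 45 pairs, 42, or 93.3%, had a positive Pearson r of centred log2(RPKM + 1) over the 6 libraries, with a median of 0.59. Over all pairs of the 7065 genes within the members' range of means, 54.6% were positive and the median was 0.07. Ctcf and Stag1 were the most alike (r = 0.97), and Smc3 and Med12 followed (r = 0.92). Stag2 was the least alike, with r = 0.00 to Stag1, -0.08 to Ctcf and -0.19 to Rad21. The points of such a correlation share their library, their depth and the run of numbers, so it is a description of these 6 libraries.

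Other genes of the same pathways gave 5 calls, all in the comparison of file runs and all lower in files 04 to 06. They are 7.46% of the 67 list genes, near the 7.62% of all genes called in that comparison, so the count is no result about these pathways. Of 14 regulators and meiotic forms of cohesin, 1 was called, Cdca5 (sororin, which holds sister chromatids together), with 31.0, 22.8, 21.8, 18.3, 15.6 and 17.0 RPKM (difference -0.53, adjusted p = 0.0380, limma). Of 31 further Mediator genes, 3 were called and 28 were not. Med8 had 7.88, 6.48, 8.42, 3.75, 3.32 and 5.34 RPKM (-0.76, adjusted p = 0.0221), Med26 had 10.3, 11.6, 11.2, 7.47, 6.25 and 5.42 (-0.71, adjusted p = 0.0270), and Med22 had 8.13, 8.75, 7.10, 5.33, 4.50 and 4.27 (-0.66, adjusted p = 0.0285). Med8 and Med22 belong to the head of Mediator, and Med26 joins it to polymerase. The fifth call, Ncapd2 of condensin, stood at -0.62. The runs did not overlap for any of the 5, but these genes were named for their difference between the same runs, so this adds no support. The medians of the lists were -0.07 for the cohesin regulators and -0.09 for Mediator. All 5 calls were lost without the library labelled control 2 and without the one labelled Dzip3-KD 1. Without control 1 or without Ring1B-KD 2 only Med26 was still called, and without Ring1B-KD 1 or without Dzip3-KD 2 the calls of Med22 and Med26 were lost.

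By word, none of the 4 pathway lists had a called gene. Against the control word, the smallest unadjusted p values belonged to Med11, a head subunit with 11.2, 5.90, 3.00, 11.2, 6.54 and 7.53 RPKM (-1.06 for Dzip3KD, adjusted p = 0.658, and -0.76 for Ring1BKD, adjusted p = 0.469), to Med18 (-0.48 for Dzip3KD, adjusted p = 0.754) and to Ldb1, which bridges enhancer complexes (-0.48 for Ring1BKD, adjusted p = 0.440), all by limma. Both libraries with the word control held the highest values of Med11, but this gene was named for its difference from that word, so this adds no support. Of the 8 paralogues and other DNA-binding factors, none was called in any comparison, and their median in the comparison of file runs was -0.04, equal to that of all genes at this rounding.

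**Figure D4:**
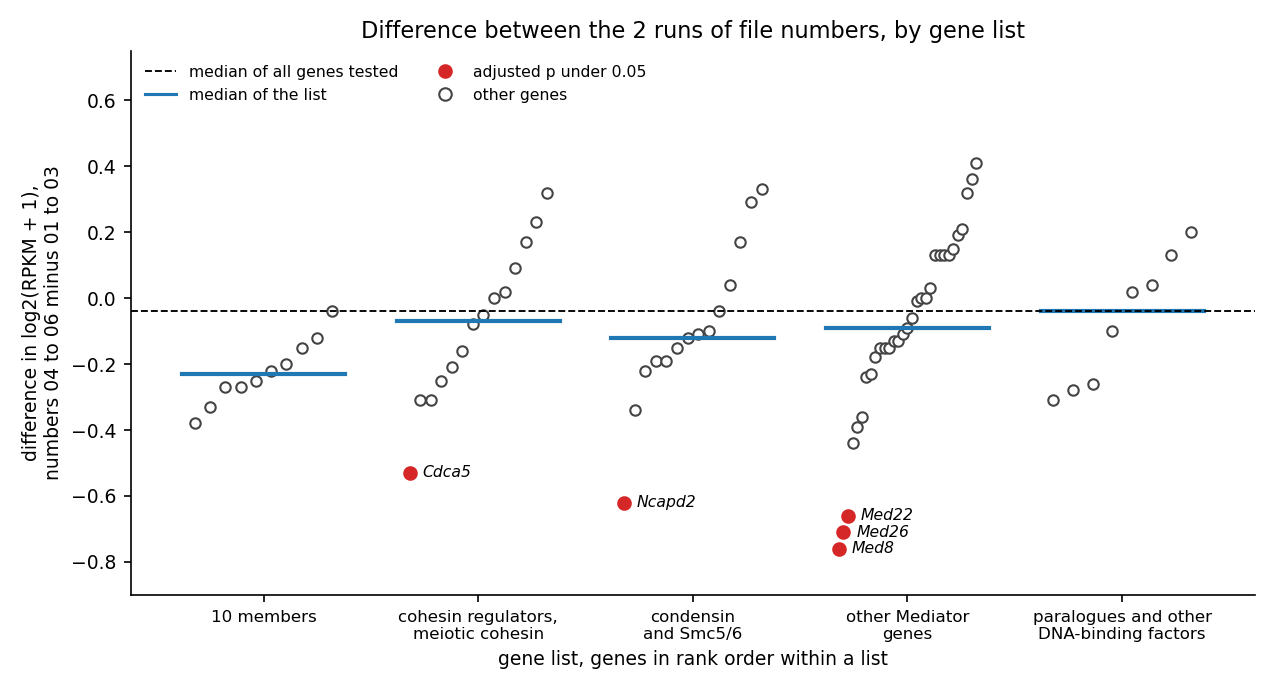
Differences in log2(RPKM + 1) between files 04 to 06 and 01 to 03 for the members and 4 gene lists, genes in rank order within a list. Blue bars are list medians, the dashed line the median of all genes tested (-0.04), and filled red points the 5 genes with an adjusted p below 0.05. The members lie between -0.38 and -0.04, while each other list has genes on both sides of 0.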

How the data were processed

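Libraries were prepared by the authors with the TruSeq Stranded mRNA kit, sequenced on a MiSeq and mapped to mm9 with the Illumina Analysis Pipeline, allowing 1 mismatch, and RPKM was computed in Partek Genomics Suite. The deposited values are RPKM per gene for 16668 genes; the annotation and tool versions are not given in the sources used here. Groups were taken from the GEO labels, and words and numbers from the file names. The members and gene lists were chosen with earlier results of these data known. Genes whose mean reached 0.5 RPKM were tested on log2(RPKM + 1) with limma 3.58.1 in R 4.3.3 (empirical Bayes with trend, Benjamini-Hochberg adjustment), by label without a block and by word with the run of file numbers as a block. The log2 scale with 1 added understates changes of low genes. Whole reads were recovered from the RPKM steps of 15583 genes (93.5%, within 0.02 of a whole read) for voom and for intervals. Mapped totals are those that the RPKM denominators imply, and 1054286 to 1241424 reads per library lay in the recovered genes. Gene coordinates come from GENCODE M1 on mm9. Named genes were the 10 members, Rnf2 and Dzip3, list genes with an adjusted p below 0.05 or, where a comparison had none, the 2 with the smallest p by word against control, the 2 highest and 2 lowest of a list, and the 5 genes most like the members. The scripts were tested on simulated data. Alternatives were another pseudocount, no filter, 2 normalizations, voom, other blocks and leaving out each library.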

Additional observations from a re-analysis of the deposited data

How the results depend on the processing

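The calls depended on the settings. No member was called under any setting except Smc1a between the file runs by voom on recovered reads, where 1 member was called (adjusted p = 0.0403). Genes called for the word Ring1BKD against control numbered 48, and 21 with a pseudocount of 0.1, 0 without the filter, 79 by voom, 0 without the block for file runs, and 3 to 61 when a library was left out. For the word Dzip3KD against control they numbered 0, 1 by voom, and 0 to 4 with a library left out. For Dzip3KD against Ring1BKD they numbered 78, 42 with a pseudocount of 0.1, 0 without the filter, 137 by voom, 0 without the block, and 26 to 172 with a library left out. Between file runs 879 genes were called, 0 without the filter, 1675 by voom, and 351 to 509 with a library left out; scaling to a common 75th percentile changed the split from 455 higher and 424 lower to 567 and 343. For Dzip3-KD against control by label, 0 to 27 genes were called with a library left out. Same-numbered libraries of the labels did not deviate together (r = -0.04, -0.24 and 0.04), and with the replicate block 1 gene was called there in place of 0. With the numbers of the Dzip3-KD libraries crossed, chosen after seeing these deviations, 0 genes were called there.

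Member differences were recomputed for all members for the word Dzip3KD against control and between file runs. In the other comparisons only the members with the lowest and highest difference were recomputed. Of these 362 values, 337 kept their direction and side of the threshold, 1 became a call, and 21 turned sign, 20 of them with a library left out. The rest, Nipbl and Smc1a within a run of files, kept their direction but moved by more than the SE. The cause was not tested. With a library left out, by label Nipbl ranged from -0.053 to 0.59 for Ring1B-KD against control (negative without Ring1B-KD 1), and Stag2 from -0.15 to 0.22 for Dzip3-KD against control and from -0.091 to 0.27 against Ring1B-KD. For the word Ring1BKD, Smc1a ranged from -0.40 to 0.16 and Nipbl from -0.062 to 0.26. For the word Dzip3KD against control, Ctcf ranged from -0.15 to 0.043, Smc1a from -0.10 to 0.46, Smc3 from -0.070 to 0.16, Med12 from -0.049 to 0.18 and Yy1 from -0.10 to 0.18, and Smc1a was -0.18 within files 04 to 06. Rad21 for Dzip3KD against Ring1BKD ranged from -0.16 to 0.080, and Stag2 between file runs from -0.15 to 0.038.

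The order of the 10 levels kept 8 to 10 ranks under every setting. The 5 called list genes stayed negative under all 11 settings; Cdca5 was called in 5, Ncapd2, Med8 and Med26 in 6, and Med22 in 4. The members rested on 55 to 570 reads a library, and the part of depth in the lack of calls was not tested.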

Other observations

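Condensin and the Smc5/6 complex, the other ring-shaped SMC machines, were examined beside cohesin. Of their 14 genes, all were tested and 1 was called in the comparison of file runs: Ncapd2, a condensin I subunit, had 21.3, 17.3, 17.9, 12.6, 11.3 and 11.8 RPKM in files 01 to 06 (difference -0.62, adjusted p = 0.0221, limma), with no overlap between the runs. Over all genes 7.62% were called in that comparison, so 1 of 14 is near the background, and 15.5% of genes had every library of files 04 to 06 below every library of files 01 to 03. Because Ncapd2 was named for its call, its separation of the same runs adds no support. The median of the list was -0.12. The condensin ATPases Smc2 and Smc4 ranged over the 6 libraries from 17.7 to 19.9 and from 17.6 to 22.7 RPKM, and differed by -0.10 and -0.19 between the runs. Ndnl2, of the Smc5/6 complex, was the highest of the list at 23.5 RPKM, and Nsmce2 (2.61) and Ncapd3 (4.83) were the lowest. By label and by word no gene of the list was called, with medians between -0.14 and 0.05.

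The genes whose pattern was most like the mean of the 10 members over the 6 libraries were Rnf216 (r = 0.993), Ubap2l (0.993), Cwc15 (0.992), Ftsj3 (0.992) and Dnttip2 (0.990), out of 3061 genes whose mean reached 10 RPKM. Of the genes searched, 8.79% had an r above 0.9. The coefficient of variation of the members had a median of 12.4%, against 17.8% for the 7065 genes within the same range of means. Those genes were not matched to the members in read number, and the coefficient includes counting error. In the variance ratio over counting alone, 6 of the 10 members lay above the median of 3.15, so the members are not shown to be steadier than other genes.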
